A study of Mus musculus with 10 samples.

Results

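Cholesterol synthesis, uptake and export was followed through 31 genes, chosen by symbol from the 18725 genes of the deposited table. They are 8 enzymes of the mevalonate and isoprenoid steps, 11 of the squalene and sterol steps, 4 genes of sterol sensing, 5 of uptake, transfer and storage, and 3 of export. Levels were set in 5 hypothyroid libraries against 5 euthyroid libraries of the mouse cochlear outer sulcus at postnatal day 10. All 31 genes were measured and all passed the filter on low counts.

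The hypothyroid mice were born to C57BL/6J dams whose drinking water held the antithyroid agents methimazole (0.05%) and, as its monohydrate, sodium perchlorate (1.0%), together with 5.0% sucrose. Treatment began on embryonic day 17 and lasted through lactation to postnatal day 10. The euthyroid mice were of the same strain and age, and their dams drank vehicle. Methimazole stops the thyroid from making its hormones, and perchlorate keeps iodide out of the gland. The agents reach the whole animal, so values from this tissue do not separate a local effect from a systemic one. The labels do not say that each library came from its own animal, nor which litters were used, so p-values measure only the spread between these libraries. The labels' extraction text speaks of femoral head cartilage at postnatal day 22, while the other labels name the cochlea at postnatal day 10.

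Animal cells build cholesterol from acetyl-CoA by way of mevalonate, farnesyl units, squalene and lanosterol. The transcription factor SREBP2, encoded by Srebf2, switches on the enzymes when sterols in the endoplasmic reticulum are scarce. Scap carries SREBP2 to the Golgi for cleavage, and Insig proteins hold the pair back when sterols are plentiful. Surplus cholesterol is esterified by Soat1 or exported by ABC transporters, which the oxysterol receptors LXR switch on. In outer hair cells of the cochlea membrane cholesterol is known to influence electromotility.

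Promoters of members are shown because the sterol enzymes are textbook targets of SREBP2, which binds sterol regulatory elements close to a CCAAT box bound by nuclear factor Y. RefSeq (GRCm38.p6) gave at least 1 promoter, running from 250 bases before to 50 bases after the start of transcription, for 25 of the 31 members. Fdps, Fdft1, Sqle, Scarb1, Stard4 and Abcg1 are named only. Hsd17b7 and Msmo1 (sterol enzymes), and Srebf2 and Insig1 (sterol sensing), were taken by the size of their change, and Hmgcs1 was added after its match had been seen. Each sequence reads 5′ to 3′ on the strand of the gene, and capitals mark matches of TCACNCCAC (sterol regulatory element) or CCAAT, on either strand, so that a CCAAT box on the other strand appears as ATTGG.
Hsd17b7, chr1:169969156-169969455, minus strand, is shown first.
Hsd17b7: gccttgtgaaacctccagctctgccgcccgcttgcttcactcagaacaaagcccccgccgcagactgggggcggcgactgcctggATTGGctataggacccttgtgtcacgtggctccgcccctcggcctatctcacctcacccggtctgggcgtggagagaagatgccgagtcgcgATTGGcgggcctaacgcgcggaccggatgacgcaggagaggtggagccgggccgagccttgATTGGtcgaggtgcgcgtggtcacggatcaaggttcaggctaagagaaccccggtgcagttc
Msmo1, chr8:64733529-64733828, minus strand, follows.
Msmo1: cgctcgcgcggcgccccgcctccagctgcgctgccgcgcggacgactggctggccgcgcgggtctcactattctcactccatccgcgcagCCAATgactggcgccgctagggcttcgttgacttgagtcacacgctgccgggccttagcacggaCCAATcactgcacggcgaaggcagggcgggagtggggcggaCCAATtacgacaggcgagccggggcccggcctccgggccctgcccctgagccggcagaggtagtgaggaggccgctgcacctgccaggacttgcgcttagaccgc
Srebf2, chr15:82147019-82147318, plus strand, is the promoter of the transcription factor itself.
Srebf2: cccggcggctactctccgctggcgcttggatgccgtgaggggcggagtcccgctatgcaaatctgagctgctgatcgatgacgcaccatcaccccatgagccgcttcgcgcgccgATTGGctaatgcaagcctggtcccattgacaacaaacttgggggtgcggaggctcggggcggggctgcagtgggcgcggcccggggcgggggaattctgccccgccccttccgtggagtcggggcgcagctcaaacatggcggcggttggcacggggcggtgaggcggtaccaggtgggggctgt
Insig1, chr5:28071162-28071461, plus strand, belongs to the protein that retains Scap.
Insig1: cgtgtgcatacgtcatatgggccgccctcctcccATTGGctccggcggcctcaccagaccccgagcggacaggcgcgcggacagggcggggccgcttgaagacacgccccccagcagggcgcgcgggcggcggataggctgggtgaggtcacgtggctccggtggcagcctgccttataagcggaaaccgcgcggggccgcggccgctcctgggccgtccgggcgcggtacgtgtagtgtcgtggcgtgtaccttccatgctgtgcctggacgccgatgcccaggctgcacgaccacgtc
Hmgcs1, chr13:119690101-119690400, plus strand, encodes the synthase that makes HMG-CoA.
Hmgcs1: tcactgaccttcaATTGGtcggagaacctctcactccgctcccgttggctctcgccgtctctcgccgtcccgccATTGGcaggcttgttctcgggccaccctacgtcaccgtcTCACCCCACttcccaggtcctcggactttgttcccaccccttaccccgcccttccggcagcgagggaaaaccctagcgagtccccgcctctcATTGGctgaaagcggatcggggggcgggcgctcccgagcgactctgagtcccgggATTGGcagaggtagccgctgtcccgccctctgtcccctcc

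CCAAT was found in the promoters of 20 of the 25 members, counting a gene once if any of its promoters held it, against 37.4% of the 32851 mouse promoters of the same length. By role, the members with CCAAT were 6 of 7 mevalonate and isoprenoid enzymes, 9 of 9 squalene and sterol enzymes, 3 of 4 sensing genes, 2 of 3 genes of uptake and storage, and 0 of 2 export genes. Some members have several promoters in the table, which raises their chance of a match. TCACNCCAC was found in 1 member, Hmgcs1, as TCACCCCAC beginning 137 bases before the start (position -137), against 1.24% of all promoters (408 of 32851). In the Hmgcs1 promoter this match did not overlap any of the 4 CCAAT matches. A match describes letters only. Where none was found, only the exact letters searched were missing from that window, and variants of them were not searched.

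Library totals were 19298145 to 19407592 estimated counts in hypothyroid libraries and 19781921 to 20063961 in euthyroid libraries. Of 14862 genes tested with edgeR's quasi-likelihood test at a Benjamini-Hochberg adjusted p under 0.05, 34.1% were lower and 37.7% higher in hypothyroid libraries, so a call by itself was common in these data. Groups did not overlap in CPM (counts scaled to a common library size, with TMM factors) for 57.9% of genes. TMM factors were 1.07 to 1.12 in hypothyroid and 0.894 to 0.936 in euthyroid libraries. With library sizes alone, the genes tested had a median log2 fold change of 0.30, against 0.04 with TMM, so the calls of several members depended on the scaling, as given beside each. The inner ear gene Otor had 5275 to 7094 CPM in hypothyroid and 5129 to 5769.7 CPM in euthyroid libraries (edgeR adjusted p = 0.109). The outer sulcus markers Slc26a4 and Epyc were detected in all 10 libraries. Both were lower in hypothyroid libraries (log2 -1.08 and -1.20, edgeR adjusted p = 1.44e-07 and 8.80e-09). Of 6 root cell and outer sulcus markers, 5 were lower and 1 did not pass. Among 6 spiral ligament fibrocyte markers, 3 were lower (Otos and Coch among them), 2 were higher and 1, Otor, did not pass. Otos was at 56.1 ± 20.7 CPM in hypothyroid and 3906 ± 766 CPM in euthyroid libraries (SD, n = 5 each). Coch was at 261 ± 37.6 CPM in hypothyroid and 2868 ± 660.0 CPM in euthyroid libraries.

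Most members were lower in the hypothyroid libraries. At an edgeR adjusted p under 0.05, 21 of 31 (67.7%) were lower, 4 were higher (Acat2, Fdft1, Tm7sf2 and Abca1) and 6 did not pass (Pmvk, Lss, Dhcr7, Mylip, Abcg1 and Apoe). The share lower stands beside 34.1% of all genes, and the share of members whose groups did not overlap (21 of 31) beside 57.9%. The median log2 fold change of the members was -0.32, against 0.04 over all genes. It was -0.05 with library sizes alone, against 0.30 over all genes. The gap between both medians was -0.35 under either scaling, which could hardly differ because scaling factors shift all genes nearly alike. With library sizes alone, 10 members were called lower and 9 higher, beside 2928 (19.7%) lower and 8650 higher of all 14862 genes. Members called in the same direction under all 21 settings tried were 10 lower ones (Fdps, Sqle, Msmo1, Hsd17b7, Sc5d, Srebf2, Insig1, Insig2, Scarb1 and Soat1) and 3 higher ones (Acat2, Fdft1 and Abca1). No member was called higher under one setting and lower under another. In bulk tissue, fewer cells of a type and less RNA per cell cannot be told apart.

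**Figure D1:**
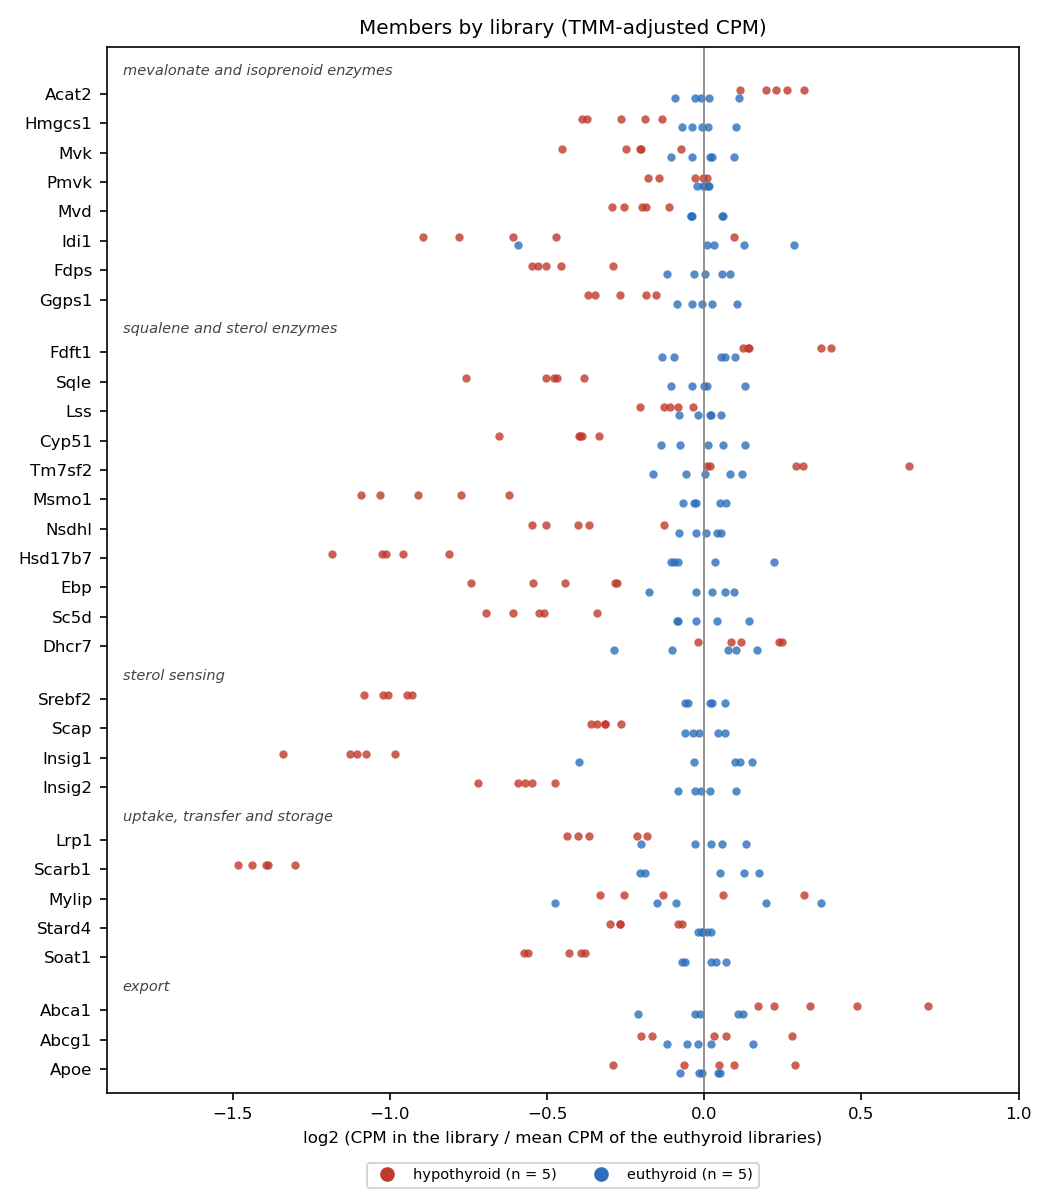
Each point is 1 library, placed at the log2 of its CPM over the mean CPM of the euthyroid libraries; rows are the 31 members by role, hypothyroid red and euthyroid blue (n = 5 each). On average, the hypothyroid points of Scarb1, Insig1, Srebf2, Hsd17b7 and Msmo1 lie farther left than those of the other members, and Abca1, Fdft1, Acat2 and Tm7sf2 lie to the right of zero.

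The sterol-sensing genes were all lower in hypothyroid libraries, with no overlap between groups for any of the 4 and a median log2 fold change of -0.79. Over all genes, 34.1% were lower and 57.9% had no overlap. Srebf2 had 61.4, 55.7, 58.2, 58.8 and 62.0 CPM in hypothyroid libraries, against 120.2, 113, 114, 119 and 124 CPM in euthyroid libraries. The lowest euthyroid library was well above the highest hypothyroid one, and the means were 59.2 ± 2.54 CPM in hypothyroid and 118 ± 4.45 CPM in euthyroid libraries (SD, n = 5 each). Its log2 fold change was -0.995 (SE 0.05, edgeR adjusted p = 4.30e-11), a 1.99-fold lower level. Srebf2 spans chr15:82147269-82205379.

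Insig1 is an anchor of Scap. In hypothyroid libraries it had 29.0, 33.7, 37.2, 34.2 and 34.9 CPM, against 71.9, 55.7, 78.7, 79.4 and 81.7 CPM in euthyroid libraries. Euthyroid 2 was the lowest of its group and was still above every hypothyroid library. The log2 fold change was -1.12 (SE 0.10, edgeR adjusted p = 2.10e-07). Insig2, the paralogue with the same anchoring role, had 51.4, 60.9, 57.9, 57.1 and 56.1 CPM in hypothyroid libraries, against 79.8, 84.0, 85.7, 90.7 and 82.9 CPM in euthyroid libraries. It was 1.49-fold lower (log2 -0.58, SE 0.05, edgeR adjusted p = 1.05e-07). Scap, the escort protein, averaged 69.3 ± 1.72 CPM in hypothyroid and 86.4 ± 3.20 CPM in euthyroid libraries (SD, n = 5 each), with a log2 fold change of -0.32 (edgeR adjusted p = 6.38e-06). The Scap call was lost with library sizes alone and on the TPM and FPKM scales, where its fold change was -0.09 to -0.05.

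**Figure D2:**
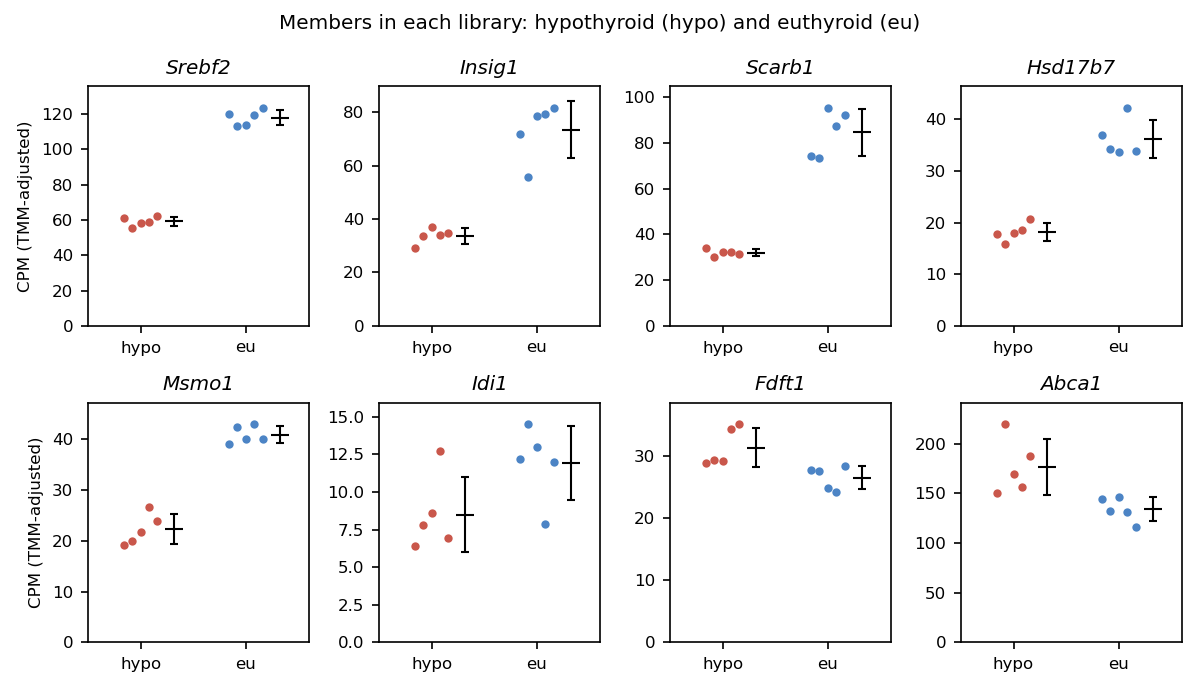
Panels give CPM in each library for 8 members, hypothyroid left in red and euthyroid right in blue, with the mean and SD beside the points (n = 5 each). Srebf2, Insig1, Scarb1, Hsd17b7 and Msmo1 show a gap below the euthyroid libraries, Idi1 overlaps, and Fdft1 and Abca1 are higher in hypothyroid libraries.

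Among the 11 enzymes of the squalene and sterol steps, 7 fell, 2 rose and 2 did not pass, with a median log2 fold change of -0.43. Over all genes, 34.1% fell and 37.7% rose. Groups did not overlap for 8 of the 11, beside 57.9% of all genes. Hsd17b7, a sterol 3-ketoreductase of the demethylation complex, had 17.8, 15.9, 17.9, 18.6 and 20.6 CPM in hypothyroid libraries, against 37.1, 34.2, 33.7, 42.3 and 33.9 CPM in euthyroid libraries. The 1.99-fold lower level (log2 -0.99, SE 0.08, edgeR adjusted p = 2.86e-08) was close in size to that of Srebf2. Msmo1, the sterol 4-methyl oxidase of the same complex, had 19.2, 20.02, 21.7, 26.6 and 23.9 CPM in hypothyroid libraries, against 39.0, 42.3, 40.0, 42.9 and 40.1 CPM in euthyroid libraries. Hypothyroid 4 and 5 were the highest of their group, and no library of one group reached the other. Msmo1 was 1.83-fold lower (log2 -0.88, SE 0.08, edgeR adjusted p = 1.08e-07). Sc5d, the desaturase that follows, had 36.4, 40.9, 38.7, 46.5 and 41.4 CPM in hypothyroid libraries, against 55.6, 65.0, 60.7, 57.8 and 55.5 CPM in euthyroid libraries. Its log2 fold change was -0.53 (SE 0.07, edgeR adjusted p = 4.01e-06).

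Sqle, the squalene epoxidase that opens the sterol branch, averaged 37.3 ± 3.48 CPM in hypothyroid and 53.3 ± 3.21 CPM in euthyroid libraries (SD, n = 5 each; log2 -0.51, edgeR adjusted p = 5.82e-06). Cyp51, the lanosterol demethylase, averaged 26.8 ± 2.19 CPM in hypothyroid and 36.1 ± 2.64 CPM in euthyroid libraries (log2 -0.43, edgeR adjusted p = 5.03e-05), and its call was lost with library sizes alone and on the FPKM scale. Nsdhl, the decarboxylating dehydrogenase of the demethylation complex, and Ebp, the sterol isomerase, had log2 fold changes of -0.38 and -0.45 (edgeR adjusted p = 0.000312 and 0.000401). Both calls were lost with library sizes alone, where the values were -0.12 and -0.18. Both were lost on the FPKM scale too, and that of Nsdhl also on the TPM scale. Together, the 3 members named for the demethylation complex (Msmo1, Nsdhl and Hsd17b7) were each lower with no overlap between groups. Over all genes, 57.9% had no overlap.

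Lss, which closes squalene epoxide into lanosterol, had 17.6, 18.1, 16.7, 18.7 and 17.8 CPM in hypothyroid libraries, against 19.9, 19.4, 18.96, 19.5 and 18.2 CPM in euthyroid libraries. The groups overlapped, and the log2 fold change of -0.11 did not pass (edgeR adjusted p = 0.114). With library sizes alone Lss turned to 0.15 and passed as higher. Dhcr7, the last reductase before cholesterol in one of its branches, had 16.9, 15.4, 18.6, 16.6 and 18.4 CPM in hypothyroid libraries, against 16.7, 17.6, 12.8, 14.5 and 16.5 CPM in euthyroid libraries. The hypothyroid values lay within or slightly above the euthyroid range (log2 0.14, edgeR adjusted p = 0.188), and with library sizes alone Dhcr7 passed at 0.40.

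Fdft1 and Tm7sf2 were the 2 higher genes of these steps. Fdft1, the squalene synthase that commits farnesyl units to sterols, had 28.9, 29.3, 29.2, 34.3 and 35.1 CPM in hypothyroid libraries, against 27.8, 27.5, 24.8, 24.2 and 28.4 CPM in euthyroid libraries. Groups were separated by a narrow gap (log2 0.24, SE 0.07, edgeR adjusted p = 0.00842). Of its 3698 exon bases, 774 overlap exons of Ctsb on the opposite strand, and whether the libraries kept strand was not stated, so the reads there cannot be told apart. Ctsb itself was lower, at 638 ± 27.3 CPM in hypothyroid and 752 ± 16.7 CPM in euthyroid libraries (SD, n = 5 each). Tm7sf2, a sterol reductase, had 15.2, 23.8, 18.6, 18.8 and 15.4 CPM in hypothyroid libraries, against 15.2, 16.1, 14.6, 16.5 and 13.5 CPM in euthyroid libraries. It overlapped between groups (log2 0.28, SE 0.11, edgeR adjusted p = 0.0382). Its call was lost in 8 of 20 alternatives, among them leaving out hypothyroid 2 (log2 0.17, edgeR adjusted p = 0.113), hypothyroid 3 or 4, or euthyroid 1, 3 or 5.

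Of the 8 enzymes of the mevalonate and isoprenoid steps, 6 fell, 1 rose and 1 did not pass, with smaller changes (median log2 fold change -0.25). Over all genes, 34.1% fell and 37.7% rose. Fdps, the farnesyl diphosphate synthase, had 15.8, 16.0, 16.9, 18.9 and 16.3 CPM in hypothyroid libraries, against 23.2, 24.0, 22.6, 21.3 and 24.5 CPM in euthyroid libraries. The groups were apart in every library (log2 -0.46, SE 0.07, edgeR adjusted p = 2.19e-05), and Fdps was the enzyme of these steps that was lower under all 21 settings. Ggps1, which makes the geranylgeranyl unit used to anchor proteins, had 66.6, 76.1, 65.5, 74.5 and 70.3 CPM in hypothyroid libraries, against 82.4, 90.9, 84.2, 86.0 and 79.7 CPM in euthyroid libraries. Hmgcs1, the HMG-CoA synthase, had 78.5, 79.5, 85.6, 93.8 and 90.3 CPM in hypothyroid libraries, against 100.3, 110.3, 97.9, 102 and 104 CPM in euthyroid libraries. Neither gene overlapped between groups, with log2 fold changes of -0.26 for Ggps1 and -0.27 for Hmgcs1 (edgeR adjusted p = 0.000436 and 0.000478). Both calls were lost with library sizes alone, where Ggps1 stood at 0.004 and Hmgcs1 at -0.002. They were lost on the TPM and FPKM scales as well.

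Acat2, the cytosolic thiolase that joins acetyl-CoA units at the head of the pathway, was the 1 higher gene of these steps. It had 39.5, 38.6, 35.6, 41.0 and 37.7 CPM in hypothyroid libraries, against 33.2, 35.6, 30.9, 32.2 and 32.7 CPM in euthyroid libraries. The lowest hypothyroid library lay just above the highest euthyroid one (log2 0.23, SE 0.06, edgeR adjusted p = 0.00196). Its near-identical copy Acat3 was scarce, at 0.861 ± 0.236 CPM in hypothyroid and 0.891 ± 0.379 CPM in euthyroid libraries (SD, n = 5 each).

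Pmvk, the phosphomevalonate kinase, did not pass (log2 -0.07, edgeR adjusted p = 0.361). It had 14.1, 15.7, 13.8, 15.3 and 15.5 CPM in hypothyroid libraries, against 15.7, 15.6, 15.3, 15.8 and 15.6 CPM in euthyroid libraries. With library sizes alone Pmvk turned to 0.20 and passed as higher, as it did on the TPM and FPKM scales. Mvk and Mvd, the kinase and decarboxylase on either side of it, had log2 fold changes of -0.23 and -0.21 (edgeR adjusted p = 0.0118 and 0.0151). With library sizes alone these turned to 0.03 and 0.06. Both calls were also lost with upper quartile factors and on the TPM and FPKM scales. Idi1, the isomerase that makes the allylic unit, had 6.41, 7.80, 8.58, 12.7 and 6.93 CPM in hypothyroid libraries, against 12.2, 14.5, 13.0, 7.89 and 11.97 CPM in euthyroid libraries. Hypothyroid 4 lay among the euthyroid values and euthyroid 4 among the hypothyroid ones (log2 -0.49, SE 0.19, edgeR adjusted p = 0.0375). The Idi1 call was lost in 14 of 20 alternatives, including 8 of the 10 that leave out 1 library, in which adjusted p reached 0.0874 without hypothyroid 1. Without hypothyroid 4 or euthyroid 4 the call was kept.

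**Figure D3:**
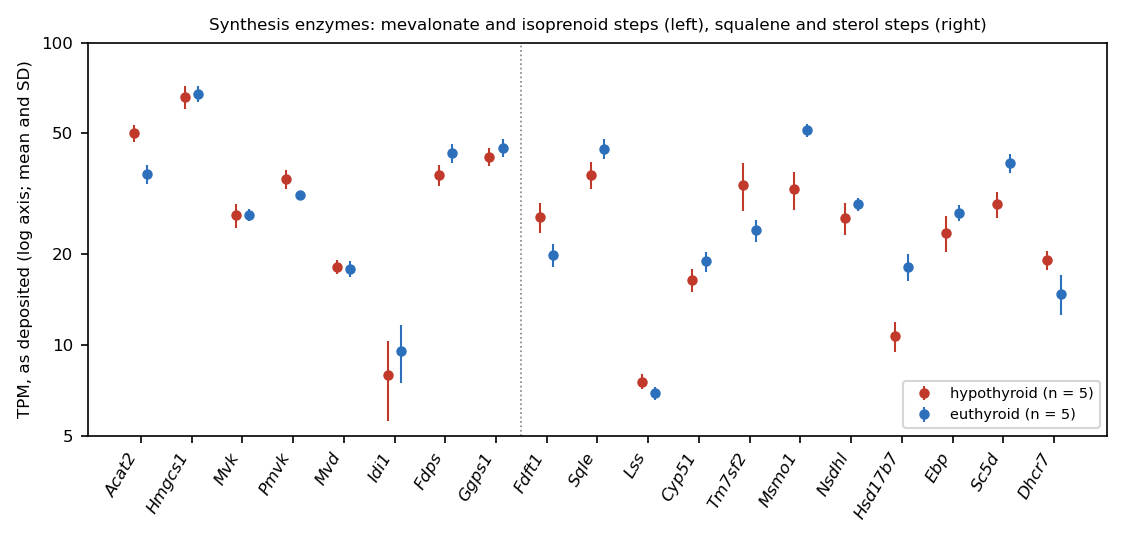
Points are mean TPM with SD for each of the 19 synthesis enzymes on a log axis, hypothyroid red left of euthyroid blue (n = 5 each). Hmgcs1 is the most abundant enzyme in both groups and Lss the least, and the widest gap among enzymes is at Hsd17b7 and Msmo1.

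Per transcript length, on the TPM scale, the enzymes spanned a wide range. Hmgcs1 had the highest mean level, 65.8 ± 5.77 TPM in hypothyroid and 67.6 ± 4.27 TPM in euthyroid libraries, and Lss the lowest, 7.54 ± 0.438 TPM in hypothyroid and 6.91 ± 0.346 TPM in euthyroid libraries (SD, n = 5 each). Idi1, next above Lss, had 7.93 ± 2.34 TPM in hypothyroid and 9.53 ± 2.08 TPM in euthyroid libraries, and in hypothyroid libraries its level did not differ from that of Lss beyond the spread. In hypothyroid libraries Acat2 ranked next below Hmgcs1 among the enzymes, at 50.0 ± 3.23 TPM, while in euthyroid libraries Msmo1 held that place at 51.2 ± 2.43 TPM. The enzymes' summed level was 500.1 to 577 CPM in hypothyroid and 631 to 682 CPM in euthyroid libraries, which did not overlap. Summed TPM was 513 to 595 in hypothyroid and 539 to 609 in euthyroid libraries, which overlapped. Groups did not overlap in TPM for 13 of the 31 members, against 21 in CPM. The share over all genes was not computed in TPM, so the 13 cannot be set beside it.

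The libraries also differed within a group. Hypothyroid 4 was the highest of the 5 hypothyroid libraries for 10 of the 19 enzymes, while it was the highest for 20.2% of all genes. Hypothyroid 1 was the lowest for 10 of the 19. In the euthyroid group, euthyroid 4 was the highest for 7 and euthyroid 2 for 6 of the 19 enzymes. Over all genes, these 2 libraries were the highest for 18.2% and 24.9%. Euthyroid 3 was the lowest for 8 enzymes. How often each library was the lowest over all genes was not computed.

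Uptake, transfer and storage held the largest fall of any member. Scarb1, the receptor that takes up cholesteryl ester from high-density lipoprotein, had 34.2, 30.2, 32.2, 32.3 and 31.2 CPM in hypothyroid libraries, against 74.1, 73.3, 95.2, 87.4 and 92.3 CPM in euthyroid libraries. The hypothyroid libraries were tightly grouped and all were far below the euthyroid ones. Scarb1 was 2.64-fold lower (log2 -1.40, SE 0.08, edgeR adjusted p = 3.29e-10), spans chr5:125277087-125341094, and among members ranked 13 by mean TPM in hypothyroid and 3 in euthyroid libraries. Soat1, which esterifies cholesterol for storage, had 56.8, 51.8, 51.4, 58.8 and 58.2 CPM in hypothyroid libraries, against 72.8, 78.5, 80.1, 77.6 and 73.2 CPM in euthyroid libraries. No library of either group reached the other (log2 -0.46, SE 0.05, edgeR adjusted p = 1.23e-06).

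Lrp1, a large endocytic receptor for lipoprotein remnants and many other ligands, had 577, 641, 563, 549 and 655 CPM in hypothyroid libraries, against 773, 647, 815, 754 and 728 CPM in euthyroid libraries. Euthyroid 2 lay below hypothyroid 5 (log2 -0.32, SE 0.07, edgeR adjusted p = 0.000571). Lrp1 no longer passed with library sizes alone (-0.05) or on the TPM and FPKM scales. Stard4, a soluble sterol carrier, averaged 23.5 ± 1.84 CPM in hypothyroid and 26.9 ± 0.307 CPM in euthyroid libraries (SD, n = 5 each). Its log2 fold change was -0.19 (edgeR adjusted p = 0.00987) and turned to 0.07 with library sizes alone. The Stard4 call was also lost with upper quartile factors and on the TPM and FPKM scales. Mylip, a ubiquitin ligase that LXR switches on to limit lipoprotein uptake, had 41.2, 64.6, 43.4, 54.0 and 47.4 CPM in hypothyroid libraries, against 59.4, 67.1, 48.7, 46.7 and 37.3 CPM in euthyroid libraries. Its groups were interleaved and it did not pass (log2 -0.05, SE 0.17, edgeR adjusted p = 0.812).

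Export genes did not move together. Abca1, which loads cholesterol and phospholipid onto lipid-poor apolipoprotein, had 151, 219, 169, 156 and 187 CPM in hypothyroid libraries, against 144, 133, 146, 131 and 116 CPM in euthyroid libraries. All hypothyroid libraries were above all euthyroid ones, by a small margin for hypothyroid 1 (log2 0.40, SE 0.10, edgeR adjusted p = 0.00312). Abcg1, which exports to high-density lipoprotein, had 35.7, 48.6, 34.9, 42.0 and 40.9 CPM in hypothyroid libraries, against 38.6, 40.7, 44.6, 39.6 and 36.9 CPM in euthyroid libraries, and did not pass (log2 0.01, edgeR adjusted p = 0.892). Apoe, the apolipoprotein that accepts exported lipid, had 1075, 1606, 1359.6, 1405 and 1259.8 CPM in hypothyroid libraries, against 1311, 1247, 1358, 1302 and 1363 CPM in euthyroid libraries. The hypothyroid libraries spread on both sides of the euthyroid ones (log2 0.03, SE 0.08, edgeR adjusted p = 0.779). With library sizes alone, Abcg1 and Apoe passed as higher, at 0.28 and 0.29. By mean TPM, Apoe was the most abundant member in both groups and Lrp1 came next.

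**Figure D4:**
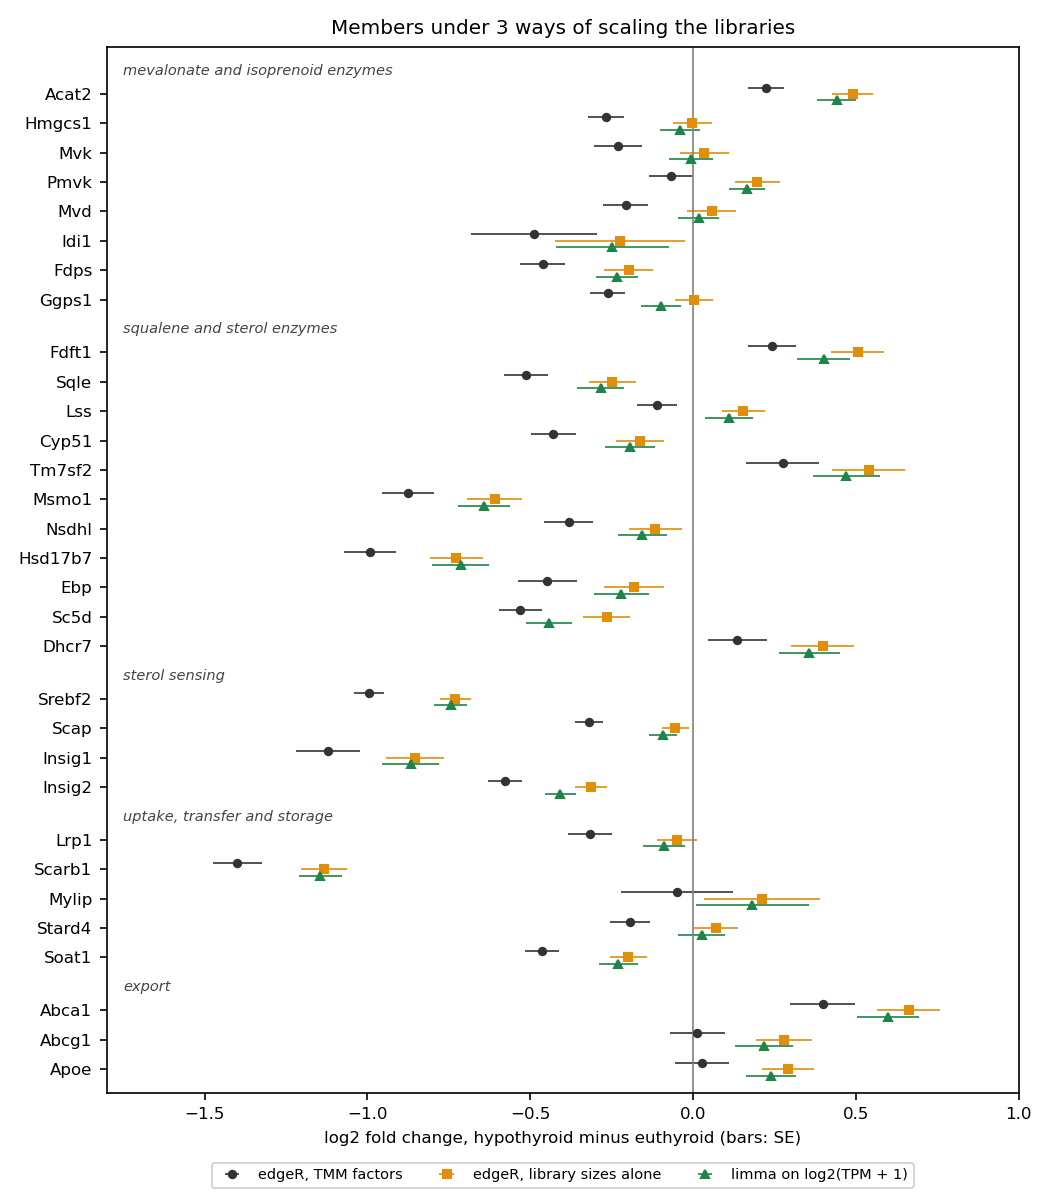
Log2 fold changes (hypothyroid minus euthyroid) with SE for the 31 members under TMM factors, library sizes alone and limma on log2(TPM + 1). The points under library sizes and TPM lie to the right of the TMM points, so small falls such as those of Hmgcs1, Mvk and Mvd reach zero, while Scarb1, Insig1, Srebf2, Hsd17b7 and Msmo1 stay below -0.5.

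Other genes of cholesterol handling were read from lists by role. Of 48 genes listed, 47 were in the table and 43 passed the filter on low counts. Of these 43, 24 were lower, 11 were higher and 8 did not pass, beside 34.1% lower and 37.7% higher over all genes, and the median log2 fold change was -0.27. With library sizes alone, 14 were lower and 17 higher, beside 2928 lower and 8650 higher of all 14862 genes. On the TPM and FPKM scales, 14 or 15 were lower and 17 higher, beside 20.5% to 22% of all genes lower. On those scales, 71.2% to 74% of the calls over all genes were higher. Without euthyroid 4, 7 of the 43 were higher. Soat2, Apoa1 and Ch25h were among the 4 that were too low to test.

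Among 6 other synthesis genes, 2 fell, 2 rose and 2 did not pass (all genes: 34.1% fell, 37.7% rose). Por, the reductase that supplies electrons to Cyp51 and Sqle, was at 46.4 ± 2.21 CPM in hypothyroid and 118 ± 8.39 CPM in euthyroid libraries (log2 -1.35, edgeR adjusted p = 1.38e-11). Lbr, an inner nuclear membrane protein with the same sterol reductase activity as Tm7sf2, was at 46.4 ± 3.47 CPM in hypothyroid and 32.2 ± 1.59 CPM in euthyroid libraries (log2 0.52, edgeR adjusted p = 1.50e-06). The groups did not overlap for either gene, as for 57.9% of all genes.

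Among 9 genes of SREBP processing and its partners, 3 fell, 2 rose and 4 did not pass (all genes: 34.1% fell, 37.7% rose). Srebf1, which encodes the SREBP that drives fatty acid synthesis, was at 157 ± 15.9 CPM in hypothyroid and 263 ± 19.2 CPM in euthyroid libraries (log2 -0.74, edgeR adjusted p = 1.90e-07). Erlin1, a cholesterol-binding protein of the endoplasmic reticulum, was at 25.2 ± 3.98 CPM in hypothyroid and 14.8 ± 2.46 CPM in euthyroid libraries (log2 0.77, edgeR adjusted p = 6.51e-05). So Srebf1 was lower and Erlin1 higher, each without overlap between groups, as for 57.9% of all genes.

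Among 9 genes of uptake and lysosomal release, 5 fell, 2 rose and 2 did not pass (all genes: 34.1% fell, 37.7% rose). Npc1 and Npc2, which pass cholesterol out of lysosomes, had log2 fold changes of -0.75 and -0.51 (edgeR adjusted p = 7.55e-09 and 2.39e-08). Npc1 was at 95.9 ± 5.76 CPM in hypothyroid and 162 ± 10.1 CPM in euthyroid libraries, and Npc2 at 238 ± 8.04 CPM in hypothyroid and 339.6 ± 9.04 CPM in euthyroid libraries.

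Among 9 genes of transfer and esters, 7 fell and 2 rose (all genes: 34.1% fell, 37.7% rose). Cav1, the caveolar protein that binds cholesterol, was at 88.5 ± 8.12 CPM in hypothyroid and 234 ± 22.9 CPM in euthyroid libraries (log2 -1.41, edgeR adjusted p = 4.49e-10). Gramd1b, which moves cholesterol from the plasma membrane to the endoplasmic reticulum, was at 63.9 ± 5.94 CPM in hypothyroid and 147 ± 6.55 CPM in euthyroid libraries (log2 -1.20, edgeR adjusted p = 1.50e-10). Scp2, a peroxisomal sterol carrier, was at 122 ± 8.57 CPM in hypothyroid and 200.4 ± 1.502 CPM in euthyroid libraries (log2 -0.72, edgeR adjusted p = 3.68e-09). All of these were without overlap between groups, as were 57.9% of all genes.

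Among 10 genes of export, oxysterols and LXR, 7 fell and 3 rose (all genes: 34.1% fell, 37.7% rose). Lcat, which esterifies cholesterol on high-density lipoprotein, had 12.6, 16.3, 17.8, 17.6 and 15.1 CPM in hypothyroid libraries, against 97.9, 89.6, 119, 104 and 95.4 CPM in euthyroid libraries. That was a 6.38-fold lower level (log2 -2.67, SE 0.10, edgeR adjusted p = 1.88e-11). Pltp, the phospholipid transfer protein of the same particles, was at 47.5 ± 5.81 CPM in hypothyroid and 149 ± 17.7 CPM in euthyroid libraries (log2 -1.65, edgeR adjusted p = 6.02e-09). Nr1h3, encoding LXR alpha, was low in both groups, at 2.51 ± 0.397 CPM in hypothyroid and 7.42 ± 0.722 CPM in euthyroid libraries (log2 -1.56, edgeR adjusted p = 4.71e-08).

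**Figure D5:**
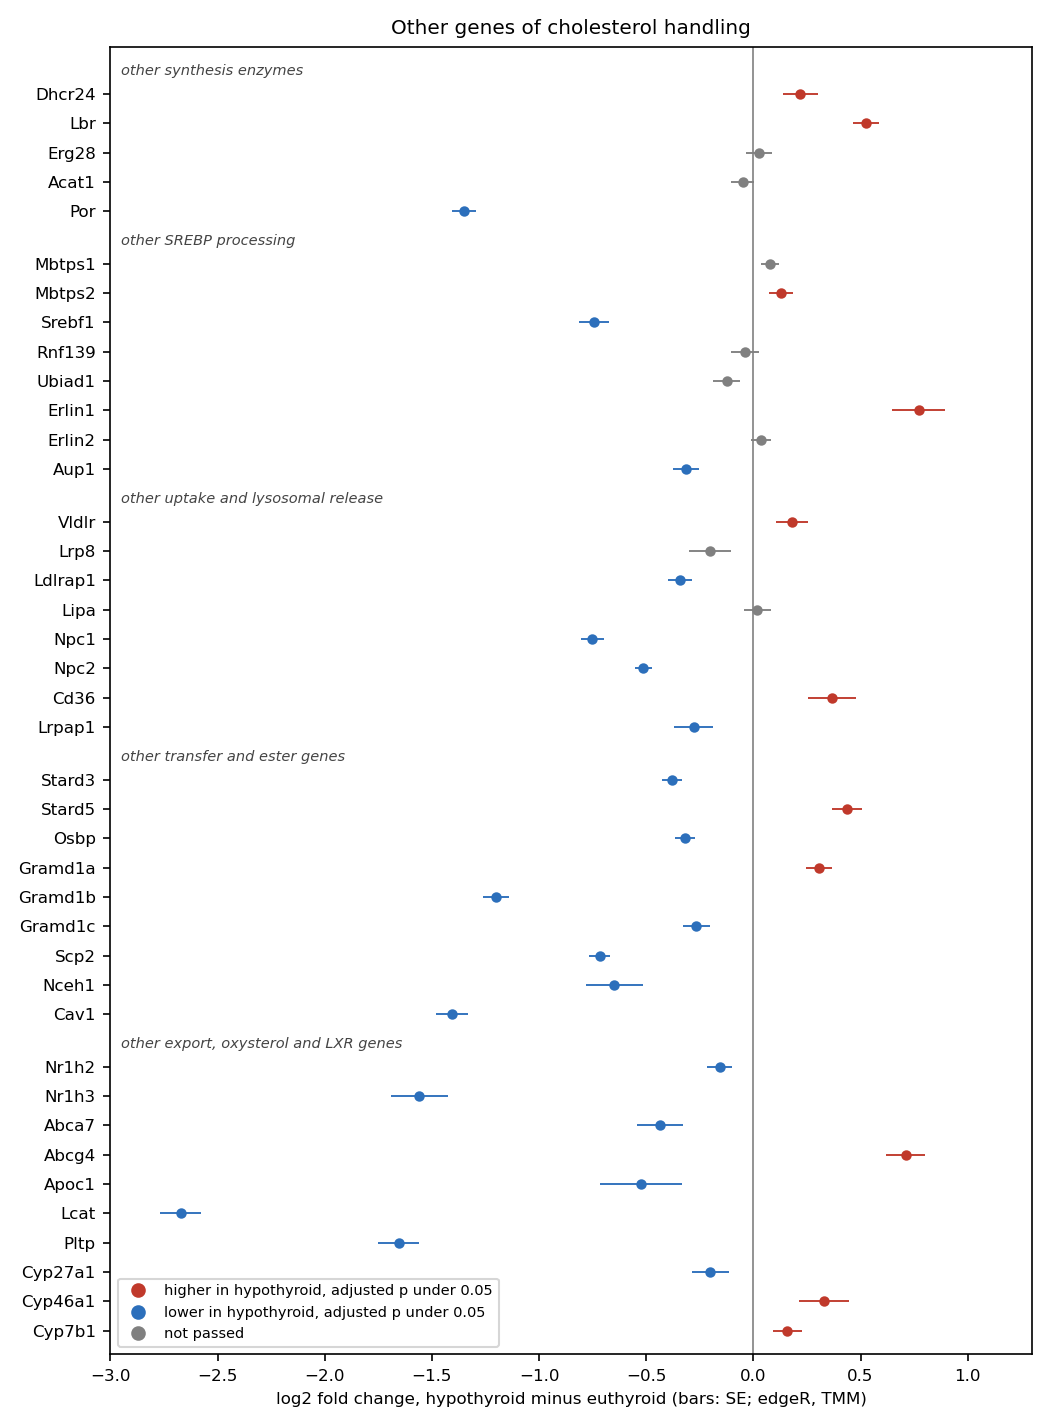
Log2 fold changes (hypothyroid minus euthyroid) with SE for 40 of the 43 tested genes outside the 31 members, by list; red marks higher, blue lower and grey not passed at adjusted p under 0.05. Lcat at -2.67 lies farthest from zero, followed by Pltp, Nr1h3, Cav1 and Por.

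Markers of cell types moved between the groups too, and their part in the changes of the members was not tested. The counts of each list, here and below, stand beside 34.1% of all genes lower and 37.7% higher. Macrophage markers were higher for 10 of 10, with summed levels of 403 to 513 CPM in hypothyroid and 263 to 294 CPM in euthyroid libraries. Endothelial markers, of cells that carry Scarb1 and Cav1, were lower for 6 of 6, with 502 to 595 CPM in hypothyroid and 700.4 to 862 CPM in euthyroid libraries. Cycling cell markers were higher for 6 of 6, with 58.1 to 94.1 CPM in hypothyroid and 16.6 to 26.7 CPM in euthyroid libraries. Melanocyte markers were higher for 6 of 6, with 864 to 1655 CPM in hypothyroid and 398 to 606 CPM in euthyroid libraries.

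Root cell and outer sulcus markers were lower for 5 of 6, with 1734 to 2447 CPM in hypothyroid and 4614 to 5249.5 CPM in euthyroid libraries. Spiral ligament fibrocyte markers were lower for 3 and higher for 2 of 6, with 6336 to 8313 CPM in hypothyroid and 12633 to 15839 CPM in euthyroid libraries. Chondrocyte markers were lower for 4 and higher for 1 of 6, with 18323 to 19911 CPM in hypothyroid and 45223 to 51737 CPM in euthyroid libraries. Osteoblast and bone matrix markers were lower for 7 of 8, with 395 to 949 CPM in hypothyroid and 1363 to 1987 CPM in euthyroid libraries, and Bglap2 was at 0 in all hypothyroid libraries. For each of these 4 lists the summed levels did not overlap between groups.

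Hair cell markers were lower for 4 and higher for 1 of 6 tested, with 32.1 to 41.8 CPM in hypothyroid and 41.7 to 95.4 CPM in euthyroid libraries, and Slc26a5 was at 0 in all hypothyroid libraries. Adipocyte markers were lower for 2 of 2 tested, with 5.51 to 6.70 CPM in hypothyroid and 30.99 to 39.4 CPM in euthyroid libraries. Most of these sums was Lpl, at 5.32 ± 0.637 CPM in hypothyroid and 33.4 ± 3.66 CPM in euthyroid libraries. Adipoq was too low to test, at 0 in all hypothyroid libraries and 0.143 ± 0.0818 CPM in euthyroid libraries. Myelinating Schwann cell markers were higher for 4 and lower for 2 of 10, with 388 to 450.1 CPM in hypothyroid and 386 to 493 CPM in euthyroid libraries. None of the 5 erythroid markers passed (edgeR adjusted p of 0.217 or above, and unadjusted p of 0.178 or above), with 492 to 710 CPM in hypothyroid and 437 to 798 CPM in euthyroid libraries.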

How the data were processed

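PolyA RNA from 10 libraries, 5 hypothyroid and 5 euthyroid, was sequenced as single-end reads of 50 bases, per the labels' protocols. The tools named in the submitters' processing notes are RSEM 1.2.12, Bowtie2 2.2.5 and HISAT2 2.0.4, with build GRCm38.p6 and no roles given. The authors deposited expected counts per gene, which RSEM estimates and which need not be whole. TPM and FPKM values, scaled by the authors for transcript length and depth, were deposited beside them, per the file headers. The strandedness of the libraries was not given in the sources used here. A further 18 columns of the table were not used.

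Expected counts were rounded to whole numbers, filtered with filterByExpr (minimum count 10) and tested with edgeR 4.0.16 in R 4.3.3, using TMM factors, a robust quasi-likelihood fit, group as the only term, and a two-sided test. P-values were adjusted by Benjamini-Hochberg over all 14862 genes tested. Fold changes are log2 of hypothyroid over euthyroid, SE is approximate (the absolute fold change over the square root of F), and levels are CPM, or TPM between genes. The members and lists were chosen with earlier results of these data known. Per-library values are given for the 3 members of each role with the smallest adjusted p and for members that did not pass, and up to 3 genes are named from each other list, whose counts also cover a few genes that are not reported here by name. Values of Acat2, Idi1, Fdft1 and Tm7sf2 were added after they had been seen.

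Alternatives were library sizes alone, upper quartile factors, DESeq2 size factors in edgeR, no filter, a minimum count of 30, DESeq2 1.42.0, limma 3.58.1 on log2 TPM or FPKM with a pseudocount of 1 (TPM also 0.1, mean of at least 1), a replicate block, and each library left out in turn. The fit was also run on simulated data with few changed genes, balanced in direction, which could not check the scaling of the libraries. Pairs from the same group (20 in all) had a mean chi-square of 5.39 to 15.7 over genes, above sampling noise, and no library was treated as a duplicate. Depth was 19298145 to 20063961 counts a library.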

Additional observations from a re-analysis of the deposited data

Results flagged for a closer look

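Cyp51 in hypothyroid 2 stood apart from the other hypothyroid libraries, at 22.97 CPM where the nearest of the others had 27.4 CPM. The gap was 0.788 of the range of the 5 hypothyroid libraries, above Dixon's 95% critical value of 0.71. It is 1 of 62 groups tested over the 31 members, and chance flags about 1 group in 20. Cyp51 kept its direction and its call when hypothyroid 2 was left out.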

How the results depend on the processing

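Counts of calls moved with the scaling of the libraries, and on the TPM and FPKM scales, where the test, the filter and the scaling for length changed as well. With library sizes alone, upper quartile factors, limma on log2(TPM + 1), limma on log2(FPKM + 1) and limma on log2(TPM + 0.1), the members' median was -0.050, -0.21, -0.093, -0.053 and -0.095, while that of all genes was 0.30, 0.15, 0.23, 0.24 and 0.25. The share of higher among all calls was 74.7%, 62.5%, 71.2%, 74.0% and 71.2%, against 52.5% with TMM. Members called were 9 higher and 10 lower with library sizes alone, 8 and 12 on either TPM scale, and 8 and 10 on the FPKM scale. Other pathway genes called were 17 higher under these 4 settings, with 14, 15, 14 and 15 lower for library sizes, TPM + 1, FPKM + 1 and TPM + 0.1. Over all genes, 8650 of 14862 were higher and 2928 lower with library sizes alone. With TPM + 1, FPKM + 1 and TPM + 0.1, 3115 of 14156, 2652 of 12942 and 3114 of 14156 were lower.

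Leaving out 1 library gave 3 to 4 members higher and 20 to 21 lower, a members' median of -0.35 to -0.29, and 21 to 25 other pathway genes lower. Other pathway genes higher were 7 to 10, with 7 without euthyroid 4.

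Signs of members near zero turned. Mvk was at 0.035 with library sizes alone and 0.029 on the FPKM scale. Ggps1 was at 0.0035 with library sizes alone. Over library sizes, TPM + 1, FPKM + 1 and TPM + 0.1, Mvd was at 0.058, 0.018, 0.051 and 0.019, Stard4 at 0.071, 0.026, 0.056 and 0.028, and Lss at 0.15, 0.11, 0.12 and 0.12. Over the same 4 settings, Pmvk was at 0.20, 0.16, 0.19 and 0.17 and Mylip at 0.21, 0.18, 0.21 and 0.19, and with upper quartile factors they were at 0.042 and 0.060. Abcg1 was at -0.012 with DESeq2 size factors and -0.011 with DESeq2. Leaving out 1 library, Mylip ran from -0.16 to 0.049 (above zero without hypothyroid 1 or euthyroid 2), Abcg1 from -0.060 to 0.064 (below zero without hypothyroid 2, euthyroid 1 or euthyroid 5) and Apoe from -0.044 to 0.098 (below zero without hypothyroid 2 or euthyroid 2). The cause was not tested.

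Libraries with the same number showed little shared deviation (correlations of -0.08 to 0.15, and 2 of 5 correlated best with their own number). The labels state no pairing, and such weak correlations cannot settle whether the numbers pair libraries. With the replicate block, 4 members were higher and 20 lower, with Idi1 no longer called, 8 other pathway genes were higher and 22 lower, and 10392 genes were called in all, against 10667 without it.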
